A study of Mus musculus with 24 samples.

Results

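The genes described here are nuclear-encoded genes of oxidative phosphorylation, most of them for subunits of its complexes, in mouse frontal cortex. They were taken by gene type and symbol from the deposited count table: protein-coding genes named as Nduf a, b, c, s or v with a number, Sdhb, Sdhc or Sdhd, Uqcr, Cox4 to Cox8, or Atp5. This rule found 83 of the 33000 genes in the table, and used no measured value. By name it also took Atp5s and Atp5sl (Dmac2 in GENCODE vM21), which are in none of the subunit lists used below. Wild-type (WT) C57BL/6 mice were compared with mice homozygous for the GFAP-IL6 transgene, whose samples carry the same C57BL/6 strain label, and all animals were 3 months old and otherwise untreated as far as the labels state. In such mice the Gfap promoter drives interleukin 6, an inflammatory cytokine, mainly in astrocytes. Total RNA from 3 WT mice (WT1 to WT3) and 3 GFAP-IL6 mice (HOM1 to HOM3) was profiled by 3'Pool-seq, in which cDNA is primed at the poly(A) tail, barcoded, pooled and cut by a transposase (tagmentation) so that only 3' ends of transcripts are read. Each mouse gave 4 libraries, with 2 ng or 1 ng of cDNA in the tagmentation reaction, in a set named A and a set named B, so that 24 libraries came from 6 animals. Samples of a pool share the later steps of the protocol, tagmentation included. The methods mention a repeated library preparation of the same samples, but neither they nor the labels say whether sets A and B are such repeats or which libraries formed a pool, so the p-values below measure the spread between these mice or libraries and not that between reactions.

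Oxidative phosphorylation couples electron transport to ATP synthesis in the inner mitochondrial membrane. Complex I takes electrons from NADH and complex II from succinate, complex III passes them from ubiquinol to cytochrome c, complex IV passes them to oxygen, and complex V, the ATP synthase, uses the resulting proton gradient to make ATP. Most subunits are encoded in the nucleus and a few in mitochondrial DNA, and neurons depend heavily on the pathway for their energy. Transcription of many of the nuclear genes is known to involve the factors NRF1, GABPA (of the ETS family) and YY1.

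Counted reads ranged from 1524165 to 12256374 per library and from 7852743 (WT3) to 37582644 (HOM3) per mouse. Libraries of the same mouse differed by more than sampling noise, so none was counted as a repeat deposit. The labels were checked on Il6 and on Gfap, the gene whose promoter drives the transgene. Gfap, the astrocyte filament protein, stood at 19.95 ± 3.78 CPM in WT and 110 ± 33.4 CPM in GFAP-IL6 mice (mean ± SD, n = 3; CPM is the count scaled by edgeR's TMM library size, as edgeR's cpm gives it), a log2 difference of 2.44 ± 0.185 (SE; adjusted p = 1.59e-06, edgeR quasi-likelihood test). Il6 was at 0.142 ± 0.132 and 2.99 ± 1.33 CPM, and its reads could come from the transgene or from the native gene. All 10 neuron markers listed, Slc17a7 and Snap25 among them, were counted in every mouse.

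Letters of 3 motifs, which the choice by symbol did not use, were more frequent in the promoters of the members than over all promoters. RefSeq promoter entries (GRCm38.p6, 250 bases before to 50 after the transcription start) were matched to 65 of the 83 members, giving 70 windows. The letters CATGCGC, from the NRF1 site, occurred on either strand in 13 of the 70 windows (18.6%) against 3.91% of all 32851 windows in the table. CCGGAAG, bound by ETS factors such as GABPA, occurred in 16 windows (22.9%, against 8.86% of all), and GATGGCG, from the YY1 site, in 11 (15.7%, against 3.49%). The NRF1 letters read the same way on both strands where they overlap as GCGCATGCGC. No letters of the 3 motifs were in 38 of the member windows, 25 held 1 motif, 6 held 2, and the window of Cox6a1 held all 3. These are matches of letters and not sites shown to be bound. The 250 bases before the start are shown for 3 members, 5' to 3' on the gene's own strand with the motif letters in capitals. Cox6a1 is the member with all 3 motifs (its GATGGCG lies after the start and is not shown). Atp5j has an ETS and a YY1 match, and the measured level of Atp5k differed strongly between the cDNA amounts.
Cox6a1 (chr5:115348959-115349208, minus strand): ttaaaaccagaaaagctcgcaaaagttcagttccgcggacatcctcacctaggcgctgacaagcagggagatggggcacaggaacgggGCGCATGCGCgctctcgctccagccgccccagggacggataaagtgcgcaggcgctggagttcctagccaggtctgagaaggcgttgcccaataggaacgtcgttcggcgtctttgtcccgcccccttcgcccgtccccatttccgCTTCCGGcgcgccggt
Atp5j (chr16:84834977-84835226, minus strand): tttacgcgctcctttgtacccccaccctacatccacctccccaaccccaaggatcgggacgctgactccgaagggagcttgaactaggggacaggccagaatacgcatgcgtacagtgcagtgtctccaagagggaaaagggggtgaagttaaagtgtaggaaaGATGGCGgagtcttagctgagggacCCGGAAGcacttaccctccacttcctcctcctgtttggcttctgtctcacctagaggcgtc
Atp5k (chr5:108434400-108434649, minus strand): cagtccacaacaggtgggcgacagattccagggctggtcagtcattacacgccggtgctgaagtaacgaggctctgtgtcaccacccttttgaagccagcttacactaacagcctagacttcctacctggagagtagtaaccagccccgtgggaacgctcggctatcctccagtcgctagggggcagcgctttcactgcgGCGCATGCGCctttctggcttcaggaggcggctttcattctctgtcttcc

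The first comparison asked whether GFAP-IL6 mice differed from WT mice in these genes. With the 4 libraries of each mouse summed, 82 of the 83 members passed the filter on low counts, and the remaining member, Cox8c, a testis isoform of complex IV, had no count in any library. None of the 82 was called at an adjusted p under 0.05 (edgeR quasi-likelihood test, Benjamini-Hochberg over all 14621 genes tested), where 263 genes, or 1.80% of all, were called. DESeq2 also called 0 members. At an unadjusted p under 0.05 there were 2 members, 2.44% of those tested, against 8.75% of all genes, and the smallest adjusted p of a member was 0.479. The fitted log2 differences were small and mostly of 1 sign. They lay below 0 for 75 of 82 members (91.5%, against 51.9% of all genes), with a median of -0.09 against -0.01 for all genes, and none exceeded 0.5 in size. The median standard error of a member was 0.0897, so for a single subunit a difference of the size of the median was not detectable with 3 mice a group.

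**Figure D1:**
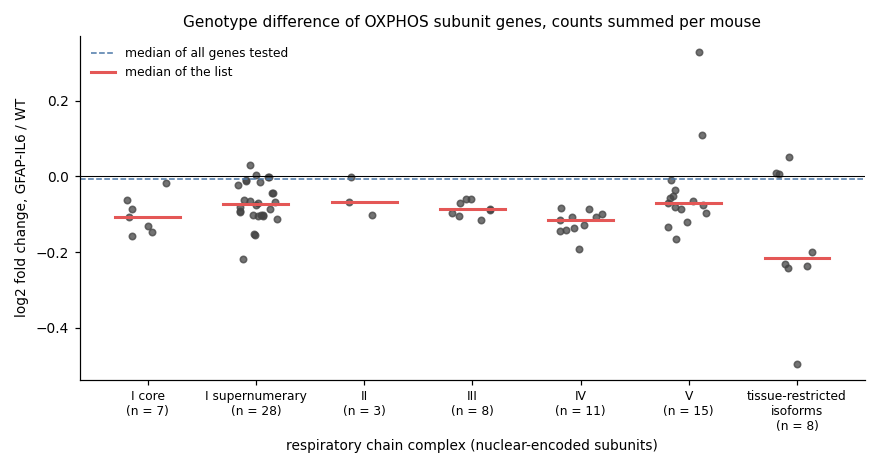
Fitted log2 fold change of GFAP-IL6 over WT (vertical axis) for the tested subunits of each complex (points, 1 gene each), with the median of each list (red) and of all genes tested (dashed blue); Atp5s and Atp5sl are in no list. The medians of all 7 lists lie below 0, from -0.07 to -0.22, and no point is a called gene.

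Complex by complex, the medians lay close together. The 7 core subunits of complex I, which carry its redox centres, all had values below 0, with a median of -0.11. Ndufs1, the largest iron-sulfur subunit, was at 154, 145 and 128 CPM in WT1 to WT3 and at 119, 134 and 130 CPM in HOM1 to HOM3. The highest 2 of these 6 levels were WT and the lowest was GFAP-IL6, but the groups overlapped, and the log2 difference of -0.16 ± 0.0899 (SE) had an adjusted p of 0.708. Ndufv1, which binds the NADH cofactor, differed by -0.02 ± 0.0810. Of the 28 supernumerary subunits of complex I, which surround the core, 26 lay below 0 and the median was -0.07. Ndufb4, a membrane-arm subunit, had the smallest adjusted p of any member. Its levels were 74.8, 68.0 and 80.3 CPM in the WT mice and 66.9, 63.4 and 61.2 CPM in the GFAP-IL6 mice. Every GFAP-IL6 value was below every WT value, with a log2 difference of -0.22 ± 0.0914 (unadjusted p = 0.0303, adjusted p = 0.479 in the fit across all genes).

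Complex II, which is also an enzyme of the tricarboxylic acid cycle, and complex III showed the same small offset. The 3 tested complex II subunits were all below 0 with a median of -0.07. Sdhb, its iron-sulfur subunit, was at 360 ± 52.9 CPM in WT and 344 ± 34.2 CPM in GFAP-IL6 mice. All 8 complex III subunits were below 0, with a median of -0.09. Uqcrc1, a core subunit, differed by -0.08 ± 0.0936 and Uqcrfs1, the Rieske iron-sulfur protein, by -0.10 ± 0.0877.

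Complex IV had the lowest median of the 5 complexes, -0.11, with 11 of 11 subunits below 0. Cox6a1, a regulatory subunit in its ubiquitous form and the gene whose promoter is shown above, was at 2778, 2656 and 2636 CPM in WT1 to WT3 and at 2269, 2452 and 2349 CPM in HOM1 to HOM3. The groups did not overlap, and the log2 difference was -0.19 ± 0.0814 (unadjusted p = 0.0335, adjusted p = 0.496). Cox4i1, a subunit through which ATP regulates the enzyme, was at 3033, 3004 and 3025 CPM in WT and at 2805, 2862 and 2702 CPM in GFAP-IL6 mice. These groups were also apart, and the difference of -0.11 ± 0.0796 had an adjusted p of 0.768. Ndufa4, named as a complex I gene but known to belong to complex IV, ranged from 1710 to 1816 CPM in WT and from 1499 to 1694 CPM in GFAP-IL6 mice. Cox5a and Cox5b, which flank the catalytic core, differed by -0.14 ± 0.0904 and -0.10 ± 0.0837. In all, 9 of 82 members (11%) had every GFAP-IL6 mouse below every WT mouse, against 5.94% of all genes tested, and 0 members had every GFAP-IL6 mouse above, against 8.43% of all genes. Of the 9, Cox4i1, Cox6a1, Cox6b1, Cox7c and Ndufa4 belong to complex IV, Ndufb2, Ndufb4 and Ndufc2 to complex I and Atp5j2 to complex V.

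**Figure D2:**
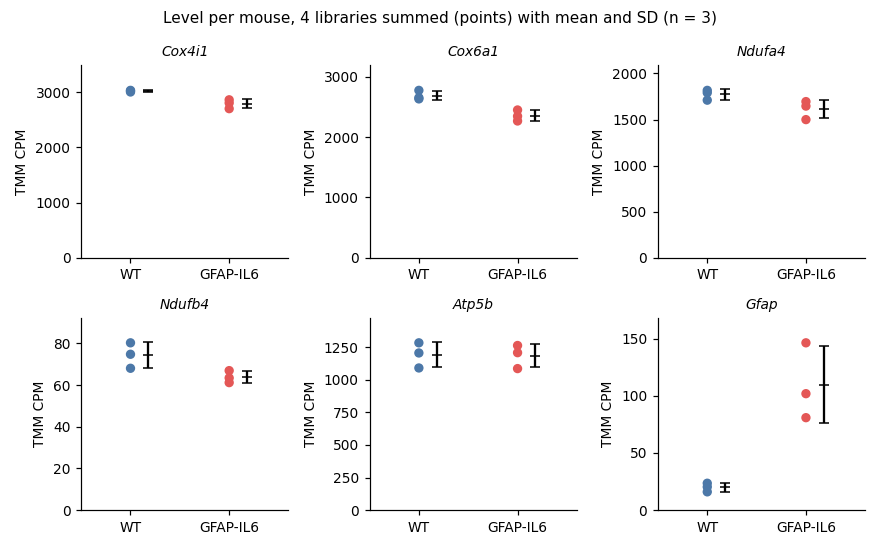
Levels in TMM-scaled CPM (vertical axis, from 0) for each mouse, with the mean and SD of 3 mice beside the points. Cox4i1, Cox6a1, Ndufa4 and Ndufb4 do not overlap between WT and GFAP-IL6 but were not called, Atp5b overlaps, and Gfap was called.

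In complex V, 13 of 15 subunits lay below 0 and the median was -0.07. Atp5a1 and Atp5b, the alpha and beta subunits that form the catalytic head, differed by -0.09 ± 0.0815 and -0.01 ± 0.0923. Atp5b was at 1090, 1282 and 1205 CPM in WT and 1085, 1262 and 1207 CPM in GFAP-IL6 mice, so that the 2 groups spanned nearly the same levels. The 3 genes for subunit c, which forms the rotating ring from an identical mature protein, did not share a sign. Atp5g1 and Atp5g3 were at -0.05 ± 0.0910 and -0.17 ± 0.0929, while Atp5g2 had the highest value of any member, 0.33 ± 0.199 (adjusted p = 0.728). Atp5g2 was at 10.97, 10.9 and 5.64 CPM in WT and 10.6, 13.9 and 11.3 CPM in GFAP-IL6 mice, with WT3, the mouse with fewest reads, lowest.

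Alternative isoforms of complex IV and related subunits are used in muscle, testis, lung or under low oxygen. The ubiquitous forms led in cortex. The levels are given per kilobase of gene model, although with 3' counting reads depend little on length. The study itself made no correction for gene length in its 3' data. In WT mice Cox4i1 stood at 3949 ± 19.8 CPM per kb and Cox4i2, the lung and low-oxygen form, at 1.07 ± 0.0886. Cox6a1 stood at 4711 ± 134 and Cox6a2, the muscle form, at 105 ± 12.2 CPM per kb. Cox7a2 was at 1462 ± 52.3 and Cox7a1, also a muscle form, at 32.7 ± 4.35. Ndufa4 was at 3602 ± 113 and its paralogue Ndufa4l2 at 0.876 ± 0.310. These 4 pairs did not overlap between mice in either genotype. For subunit c the order of Atp5g1 and Atp5g3 depended on the scale. Per kilobase Atp5g3 was at 889 ± 64.8 and Atp5g1, whose gene model is 4912 bases long against 724, at 119 ± 10.2. In CPM without a length correction they were at 644 ± 46.9 and 583 ± 49.997 in WT, with overlapping ranges, and Atp5g1 was the higher in WT1 and HOM1. Atp5g2 was below both on either scale. Its 3' end has near-identical copies in 2 other genes and that of Atp5g1 in 1, while none was found for Atp5g3. Uniquely aligned reads cannot cover such copies well, so these levels and their order are uncertain. Of the 8 tested isoforms 5 lay below 0 in the genotype comparison, with a median of -0.22 that rests on low counts, and none was called by edgeR or DESeq2 (0 at an unadjusted p under 0.05). Cox7b2, the lowest of all members at -0.50 ± 0.304, had levels of 2.60, 4.32 and 3.02 CPM in WT and 1.37, 2.68 and 2.70 CPM in GFAP-IL6 mice. Its estimate moved between -0.78 and -0.01 over the other settings tried. Cox7a2l, also counted in this list though not at a low level (172 ± 18.4 CPM per kb in WT mice), differed by 0.05 ± 0.0908.

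As a share of all counted reads, the 83 genes made up 5.13, 4.82 and 4.74% in WT1 to WT3 and 4.67, 4.86 and 4.54% in HOM1 to HOM3. The means were 4.90 ± 0.204% and 4.69 ± 0.163% (SD, n = 3 mice), and the ranges overlapped, with WT1 highest and HOM3 lowest. Complex IV genes alone took 1.72 ± 0.0415% and 1.61 ± 0.0716%. The offset was largest in these 2 animals. Relative to each gene's mean over the 6 mice, the median member deviated by 0.10 in WT1, 0.02 in WT2, 0.03 in WT3, -0.03 in HOM1, 0.01 in HOM2 and -0.12 in HOM3, on the log2 scale. The median fold change was -0.05 without HOM3 and -0.06 without WT1. Within single sets and amounts the medians were -0.06 (set A, 2 ng), -0.08 (set B, 2 ng), -0.09 (set A, 1 ng) and -0.08 (set B, 1 ng), from the same mice each time.

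**Figure D3:**
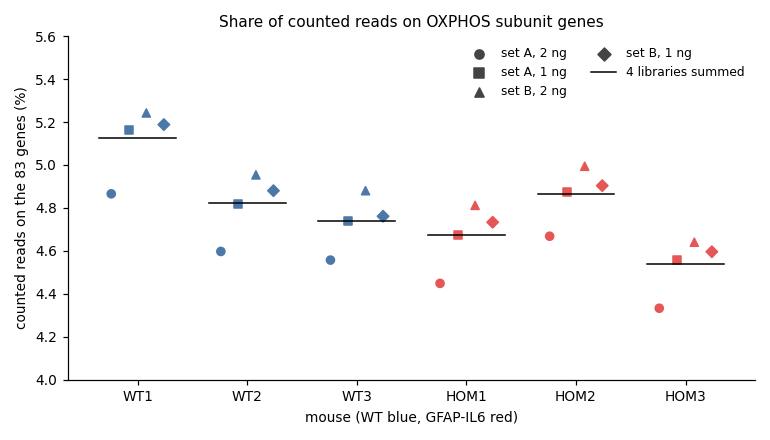
Percentage of counted reads on the 83 genes (vertical axis, from 4 to 5.6%) in each of the 4 libraries of a mouse (symbols) and in their sum (line). The summed shares of WT mice (4.74 to 5.13%) and GFAP-IL6 mice (4.54 to 4.86%) overlap, and the 2 ng library of set A is the lowest of the 4 in all 6 mice.

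Other genes of mitochondrial energy metabolism had similar values. In the genotype comparison 0 genes of each of these lists were called by edgeR or DESeq2, and 0 had an unadjusted p under 0.05. All 8 genes of a fixed list of subunits and associated factors outside the symbol rule lay below 0, with a median of -0.09. Sdha, Cyc1 and the electron carrier Cycs were among them, and the list was not made to be complete. So did 32 of 46 assembly factors (median -0.06), 6 of 8 tested subunits encoded by mitochondrial DNA (-0.08), 9 of 12 regulators of mitochondrial gene expression (-0.08) and 16 of 16 tricarboxylic acid cycle enzymes (-0.05). Markers of other cells moved with genotype in the same mice. Of 10 microglia markers 9 rose, with a list median of 1.07, and C1qb rose by 1.46 ± 0.105 (SE; adjusted p = 1.41e-06, edgeR). Their summed level was 589 to 644 CPM in WT and 1108 to 1451 CPM in GFAP-IL6 mice. Of 10 astrocyte markers Gfap and Atp1b2 rose, and the summed level was 2090 to 2238 against 2383 to 2653 CPM. Of 10 endothelial and mural markers Flt1 and Rgs5 rose, at 116 to 148 against 163 to 205 CPM. Of the 10 neuron markers none was called by edgeR or DESeq2 and 10 lay below 0, with a median of -0.06 and sums of 9786 to 10766 against 9264 to 10266 CPM. Oligodendrocyte markers summed to 5987 to 9228 and 5958 to 8904 CPM, with none called by either tool and 0 at an unadjusted p under 0.05, as for the neuron list. No marker of the 5 lists was at 0 in any mouse. The part of cell composition in the offset of the subunit genes was not tested, and in a bulk sample fewer cells of a type and less RNA per cell cannot be told apart.

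The second comparison set libraries with 2 ng of cDNA in the tagmentation reaction against those with 1 ng, from the same 6 mice. The main fit had genotype but no mouse term. Its calls, standard errors and adjusted p therefore ignore the pairing by animal, and counts with the mouse as a block are given beside them. The pools are not known, so amount and reaction cannot be told apart, and amount effect below names only this difference. In set A many subunit genes differed. Of 80 members tested, 8 (10%) were higher and 20 (25.0%) lower with 2 ng than with 1 ng, against 8.40% and 8.66% of all 12869 genes tested. In set B 9 members (11.2%) were higher and 5 (6.25%) lower, against 2.45% and 3.58% of all 12778 genes. With the mouse as a block the counts were 15 higher and 40 lower in set A and 28 and 21 in set B. The block raised the calls over all genes too, to 3906 of 12869 in set A and 2592 of 12778 in set B. The median member stood at -0.09 in set A and 0.02 in set B. In set A 13 members were higher and 40 lower in all 6 mice, and in set B 22 and 17. Such counts were not made over all genes, so they cannot be read as particular to the members.

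Of the members 10 were called in both sets, each with the same sign. They were 35.7% of the members called in set A and 71.4% of those called in set B (24.5% and 69.6% for all genes), and since both sets came from the same 6 mice they do not repeat each other over animals. The 5 that were higher with 2 ng were Ndufs5, Atp5l, Atp5g2, Ndufs3 and Cox7a2l. Ndufs5 (ENSMUSG00000028648.11, chr4:123712710-123718202, minus strand), a supernumerary complex I subunit on the intermembrane side, ranged from 179 to 213 CPM (median 205) with 2 ng in set A and from 96.7 to 124 CPM (median 108) with 1 ng. In set B it ranged from 174 to 218 CPM and from 97.6 to 139 CPM. The 2 amounts did not overlap in either set, and the log2 fold changes were 0.90 ± 0.0709 (adjusted p = 1.95e-10) and 0.79 ± 0.0820 (adjusted p = 3.87e-07, edgeR). Atp5l, subunit g of the ATP synthase membrane part, had medians of 36.9 and 19.5 CPM in set A and 33.6 and 22.0 CPM in set B. It rose by 0.94 ± 0.113 and by 0.64 ± 0.121. Atp5g2, the subunit c gene described above, had the largest change of any member, 1.56 ± 0.215 in set A and 1.18 ± 0.173 in set B, at medians of 18.9 against 5.71 CPM and 16.005 against 6.495 CPM. In set A its 2 ng values ran from 7.27 to 23.97 CPM and its 1 ng values from 3.87 to 9.85 CPM, so the amounts overlapped, with WT3 the lowest at 2 ng. Ndufs3, a core complex I subunit, rose by 0.53 ± 0.0817 and 0.61 ± 0.0859. Cox7a2l rose by 0.39 ± 0.0659 in set B and by 0.20 ± 0.0685 in set A, where its adjusted p was 0.0477.

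The 5 that were lower with 2 ng in both sets were Ndufb4, Atp5k, Ndufa3, Cox7c and Atp5j2. Ndufb4 (ENSMUSG00000022820.3, chr16:37647170-37654453, minus strand) ranged from 36.8 to 42.3 CPM with 2 ng and from 76.5 to 93.8 CPM with 1 ng in set A. The ranges in set B were 49.5 to 70.4 and 69.7 to 101 CPM. The amounts were far apart in set A and touched in set B, where the highest 2 ng library was above the lowest 1 ng library. It fell by 1.06 on the log2 scale in set A (SE 0.0812, adjusted p = 9.98e-11) and by 0.57 in set B (SE 0.0780, adjusted p = 1.88e-05). Atp5k (ENSMUSG00000050856.14, chr5:108433244-108434448, minus strand), subunit e of the ATP synthase, which with Atp5l helps the enzyme form dimers, moved the other way from Atp5l. Its medians were 635 and 1085 CPM in set A and 728 and 1048 CPM in set B, without overlap, and the changes were -0.77 ± 0.0620 and -0.47 ± 0.0676. Ndufa3 fell by 0.51 and 0.34, Cox7c by 0.38 and 0.35, and Atp5j2 by 0.33 and 0.19 on the log2 scale.

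**Figure D4:**
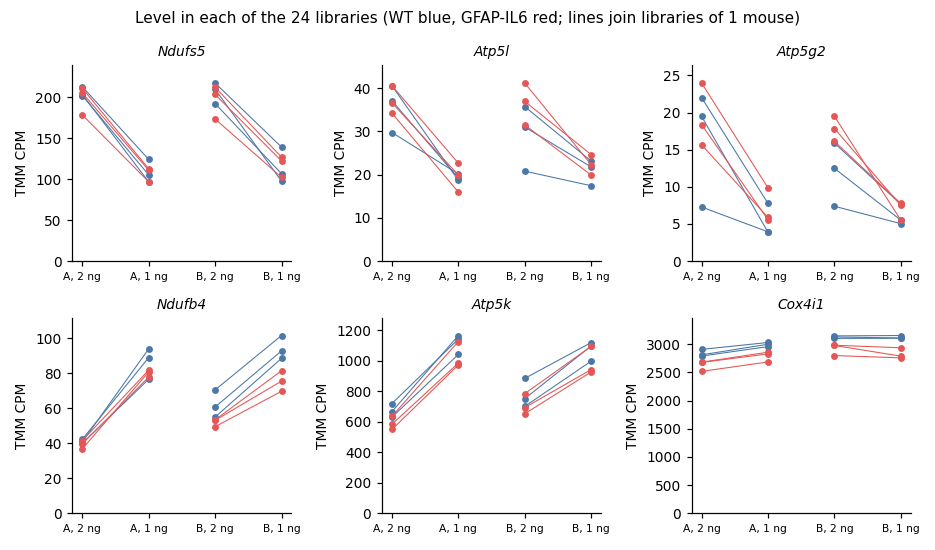
TMM-scaled CPM (vertical axis, from 0) in each of the 24 libraries for 6 members, with lines joining the 2 ng and 1 ng libraries of a mouse. Ndufs5, Atp5l and Atp5g2 are higher and Ndufb4 and Atp5k lower with 2 ng in both sets, and Cox4i1, shown for reference, was not called for the amount in either set without the mouse block and was called lower with 2 ng in set A with it.

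By complex, set A gave 8 lower and 1 higher (Ndufs5) of the 28 supernumerary complex I subunits, 5 lower of 11 complex IV subunits (Cox6a1, Cox7c, Cox6b1, Cox7a2 and Cox7b), and 3 lower (Uqcrq, Uqcr10 and Uqcrh) and 2 higher (Uqcrfs1 and Uqcrc1) of 8 complex III subunits. Complex II gave 1 higher of 3, the membrane anchor Sdhd. Complex V gave 2 higher and 3 lower of 15. In set B the called complex IV genes were Cox7c (lower) and Cox5b and Cox8a (higher), and Atp5g1 rose by 0.30 ± 0.0661 in complex V. Without the block the call of Cox5b was lost when WT2 or HOM2 was left out (adjusted p up to 0.0811, edgeR). With the block and all mice it was kept (adjusted p = 2.64e-18, edgeR). The core subunits Ndufs1, Ndufv1, Sdhb, Cox4i1, Cox5a, Atp5a1 and Atp5b were called in neither set without the block. With the mouse as a block Ndufs1 was called in both (0.17, adjusted p = 0.000649, and 0.12, adjusted p = 0.0323), Cox4i1 and Cox5a in set A (-0.09, adjusted p = 3.86e-07, and -0.15, adjusted p = 6.50e-10), and Ndufv1 and Atp5b in set B (0.12, adjusted p = 0.000317, and 0.05, adjusted p = 0.0401), all by edgeR. Of the genes outside the symbol rule Ndufab1, the mitochondrial acyl carrier protein, fell by 0.89 ± 0.0660 and 0.75 ± 0.0629, and Cox17, a copper chaperone for complex IV, by 1.09 ± 0.101 and 0.70 ± 0.0970. The mitochondrial transcripts mt-Co1 and mt-Nd3 rose in both sets, mt-Nd3 by 1.73 ± 0.157 and 1.103 ± 0.144.

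**Figure D5:**
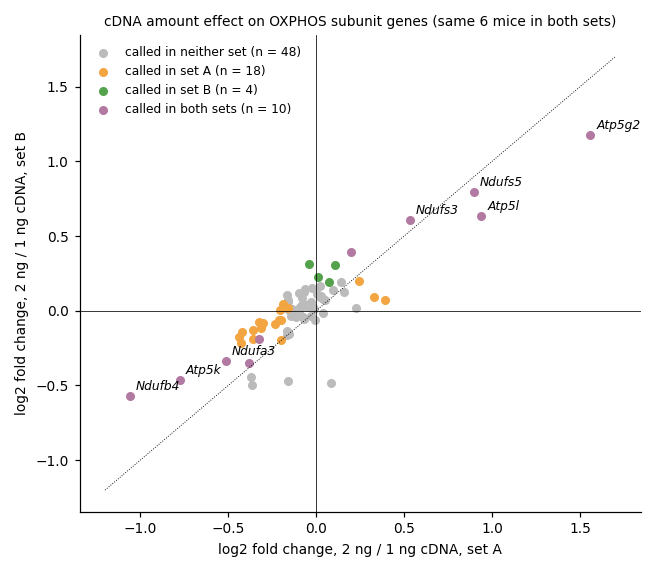
Log2 fold change of 2 ng over 1 ng for 80 members in set A (horizontal axis) and set B (vertical axis), coloured by the set in which the gene was called; the dotted line marks equal values. The 10 genes called in both sets have the same sign on both axes, and 18 genes called in set A alone lie mostly below 0 on the horizontal axis. Of all 28 genes called in set A, 25 have the same sign on both axes.

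Properties of the transcripts were set beside these values as a description. The gene models of the members are short, with a median of 875 bases against 1683 for all genes, and 47 of 83 are under 1000 bases. Over the 80 tested members length and the amount effect gave Spearman correlations of 0.13 (set A) and 0.21 (set B), across genes that share libraries. For 14 of the 83 members another annotated gene elsewhere carries a near-identical copy of the transcript's last 300 bases (at least 100 aligned bases at 97% identity or more, GENCODE vM21), which uniquely aligned reads cannot cover well. Such copies were found for 4 of the 5 members that were higher with 2 ng in both sets (Atp5l with 9 copies, Atp5g2 with 2, Ndufs5 and Ndufs3 with 1 each), for 1 of the 5 that were lower (Cox7c, with 2) and for 9 of the other 70 tested members. For Atp5g2 the transcript model ends before the gene does, so copies of bases at the 3' end of that gene were not searched. The values of the 14 genes with copies are therefore uncertain as levels, and the part of the copies in the amount effect was not tested. In addition 4 members overlap another gene on the same strand in the last exon and 9 on the other strand, and no source used here gives the strand setting of the counting.

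The third comparison set the libraries of set A against those of set B at equal amount, again without a mouse term in the main fit. With 2 ng, 5 of 80 members (6.25%) were higher and 24 (30.0%) lower in set A, against 12.6% and 7.32% of all 12711 genes tested. With 1 ng, 1 member (1.25%) was higher and 0 lower, against 0.138% and 0.567% of 13048 genes. At an unadjusted p under 0.05 (edgeR) there were 3 members at 1 ng, 3.75% against 8.33% of all genes. DESeq2 called 2 members higher and 0 lower there, and 161 of all 8670 genes it tested. With the mouse as a block the counts were 12 higher and 48 lower at 2 ng, and 12 and 14 at 1 ng. Over all genes the block gave 4118 calls of 12711 at 2 ng and 695 of 13048 at 1 ng. At 2 ng Sdhd was higher in set A, at 211 to 263 CPM against 142 to 176 CPM in set B, without overlap (0.54 ± 0.0680, adjusted p = 6.23e-07, edgeR). Uqcrfs1 rose by 0.36 ± 0.0667 and Ndufs1 by 0.30 ± 0.0754. Ndufb4 was the most changed in the other direction, at -0.48 ± 0.0887, followed by Ndufb8 and Atp5d, the delta subunit of the ATP synthase, at -0.33 ± 0.0894 and -0.32 ± 0.0644. Among complex IV genes Cox6a1 differed by -0.25 ± 0.0554 and Cox5b by -0.26 ± 0.0585. At 1 ng the same genes were not called without the block, with Sdhd at 0.20 and Ndufb4 at -0.01, and the called member was Cox7c (0.22, adjusted p = 0.0480). With the mouse as a block Sdhd (adjusted p = 0.000369), Ndufs1 (0.000138), Uqcrfs1 (0.0489), Cox6a1 (0.0276) and Cox5b (0.0219) were called at 1 ng, each with its sign at 2 ng. Cox7c was also higher in set A at 2 ng (0.21 ± 0.0604).

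Whether the amount effect differed between the sets was tested as a product term over all 24 libraries with the mouse as a block. The amount effect of 37 members (46.2% of 80) was more negative in set A than in set B, and that of 2 members (2.50%), Sdhd and Uqcrfs1, more positive. Among all 13249 genes 4.98% were more negative and 6.08% more positive. Cox6a1 was at 1886 to 2279 CPM in the 2 ng libraries of set A and at 2245 to 2780 CPM in those of set B, and with 1 ng at 2447 to 2930 and 2414 to 3026 CPM. Its product term was -0.22 ± 0.0216 (adjusted p = 1.33e-16, edgeR). The 2 ng libraries of set A held 4.58 ± 0.184% of their reads on the 83 genes, against 4.92 ± 0.201% for 2 ng in set B, 4.80 ± 0.207% for 1 ng in set A and 4.84 ± 0.202% for 1 ng in set B (SD, n = 6 libraries). In all 6 mice the 2 ng library of set A had the lowest share of the 4 and the 2 ng library of set B the highest.

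The genotype difference was not found to depend on these conditions. Neither the product of genotype and amount nor that of genotype and set was called for any gene (0.00% and 0.00% of 13249, edgeR, the only tool run for the products). At an unadjusted p under 0.05 there were 1 and 0 of 80 members (1.25% and 0%), against 2.03% and 5.34% of all genes. The median standard error of a member's product term was 0.0535 in both tests, on the log2 scale.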

How the data were processed

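Per the labels and the study's methods, the authors trimmed poly(A) from the reads, aligned them with STAR 2.4, counted unique reads on GENCODE vM6 genes with featureCounts and deposited raw counts per gene and library with no normalization. The labels name hg19, but the study gives mm10 for mouse, and the gene identifiers are mouse. Positions and 3' ends are from GENCODE vM21 (same mm10 build), copies from minimap2 2.31-r1302.

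Counts were tested with edgeR 4.0.16 in R 4.3.3 (quasi-likelihood, TMM, filterByExpr, Benjamini-Hochberg over all genes, called at adjusted p under 0.05). Genotype was fitted on counts summed per mouse, amount and set on single libraries with genotype as a term. A standard error is the log2 fold change over the root of its F. DESeq2 1.42.0, other scalings and filters, the mouse block and leaving out each mouse were alternatives. Amounts and sets are paired by animal: deviations of the 2 ng and 1 ng libraries of a mouse correlated at 0.233 to 0.397. Scripts were tested on simulated data.

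Text names, per comparison, up to 12 called members, the 4 largest changes, fixed core and alternative subunits, Gfap and Il6, and up to 3 called genes of other lists; some further members were added after their values were seen. The members and lists were chosen with earlier results of these data known. Intervals for single counts are not given, and reads without molecular identifiers are not independent molecules. Protein sequences were not used here. Some values of the fixed members are not reported here.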

Additional observations from a re-analysis of the deposited data

Results flagged for a closer look

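The effect of the cDNA amount differed between set A and set B, by the product term in 1 edgeR fit of all 24 libraries with the mouse as a block. It was more negative in set A for 37 members and more positive for 2. Among the members named in the amount comparisons the difference of the log2 fold changes (set A minus set B) was -0.47 for Ndufb4, -0.34 for Ndufb8, -0.29 for Atp5k, -0.26 for Uqcrq, -0.24 for Ndufb2, -0.22 for Cox6a1, -0.20 for Cox5b, -0.19 for Atp5g1, -0.17 for Cox7a2l, -0.17 for Ndufa3 and -0.13 for Atp5j2. This test was chosen after the amount comparisons had been seen.

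In 3 of 41 groups of 6 within-mouse log2 ratios of 2 ng over 1 ng or set A over set B (called members, and the median over the members), 1 mouse stood apart by Dixon's 95% criterion, which chance meets in about 1 of 20 groups. Cox7c was at -0.27 in WT3 in set A, Ndufa3 at -0.26 in WT2 in set B and Ndufb8 at 0.0154 in WT3 in set B, each nearer to 0 than in the other 5 mice.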

How the results depend on the processing

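Of the 133 values of named members recomputed, none reversed a called sign; called members that are not among the named were recomputed only in the counts. In the genotype comparison every alternative gave 0 called members, and the median ran from -0.11 (without HOM2) to -0.05 (without HOM3). With the same replicate number as a block across the genotypes the count stayed at 0; numbers do not pair these animals (correlations -0.049, -0.032 and -0.034). Library totals gave members a median of -0.06 and all genes 0.02, with 65 of 82 below 0. With the mouse as a block the called members became 15 higher and 40 lower for the amount in set A, 28 and 21 in set B, 12 and 48 for set A against set B at 2 ng, and 12 and 14 at 1 ng. DESeq2 called 10 lower for the amount in set B and 2 higher for the sets at 1 ng, where library totals and no filter gave 0 each. With library totals the median became -0.035 in set A and 0.038 in set B for the amount. For the sets at 2 ng the median of -0.12 became -0.13 with DESeq2, -0.13 with its size factors, -0.11 with library totals, -0.13 without a filter and -0.13 with at least 10 counts in every library; the cause was not tested.

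Leaving out each mouse in turn gave, for the amount in set A, 6 to 8 members higher, 14 to 22 lower and a median of -0.09 to -0.08, and in set B 6 to 9, 4 to 7 and 0.02 to 0.02. For the sets at 2 ng it gave 3 (without WT2) to 5 higher, 19 to 25 lower and a median of -0.14 to -0.11, and at 1 ng 0 to 0 higher, 0 to 0 lower and a median of -0.02 to -0.01. The 1 ng call of Cox7c was thus lost without any 1 of the 6 mice. The set A call of Cox7a2l was lost without WT1, WT2, HOM2 or HOM3, and that of Uqcrc1 without WT2, HOM1, HOM2 or HOM3. In set B the calls of Cox5b (without WT2 or HOM2) and Ndufb8 (without WT2, HOM2 or HOM3; adjusted p up to 0.149) were lost. For the sets at 2 ng the call of Ndufv1 was lost without WT2 or HOM2, and that of Cox7a2l without any 1 of WT1, WT2, HOM1, HOM2 or HOM3. Fewer samples were fitted in each, and none of these fits had a mouse term. With the mouse as a block and all 6 mice, each of these calls was kept (edgeR). Adjusted p was 4.13e-16 for Cox7c at 1 ng, and 2.49e-06 for Cox7a2l and 1.44e-09 for Uqcrc1 in set A. In set B it was 2.64e-18 for Cox5b and 9.92e-19 for Ndufb8. For the sets at 2 ng it was 2.93e-07 for Ndufv1 and 8.44e-05 for Cox7a2l. With 3 mice a genotype and a median standard error of 0.0897, a genotype difference of a single member near the median was not detectable.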
